A study of Caenorhabditis elegans with 6 samples.

Results

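The RNA of 9 genes that make, package or take back the monoamine transmitters of *C. elegans* was followed in 6 libraries of whole worms. The genes are *tph-1*, *cat-1*, *cat-2*, *cat-4*, *bas-1*, *tdc-1*, *tbh-1*, *dat-1* and *mod-5*, chosen by gene name from the 46904 genes in the count tables. All 9 were among the 14899 genes with enough counts to be tested. The worms were wild-type Bristol N2 hermaphrodites. From 3 days of age they were kept for 5 days on plates of *E. coli* OP50 mixed with *Lactococcus lactis* LL12007, OP50 mixed with LL100933, or OP50 alone, the standard laboratory food. Each of these 3 groups had 2 libraries, made from about 200 pooled worms. The labels number the LL100933 strain 100923, and the name in the study's text is used here. The comparison asks which genes differ in worms fed each *Lactococcus* strain against the control-fed group (OP50). No source states whether a group's libraries were from separate plates or worm cultures, so p-values reflect library-to-library spread that may be technical.

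Monoamines are small transmitters made from amino acids by a few neurons, and in *C. elegans* they set the pace of feeding, egg laying and movement. Serotonin is made from tryptophan by the hydroxylase *tph-1*, and dopamine from tyrosine by the hydroxylase *cat-2*. Both routes share the decarboxylase *bas-1* and the GTP cyclohydrolase *cat-4*, which starts the synthesis of their cofactor tetrahydrobiopterin. Tyramine is made from tyrosine by the decarboxylase *tdc-1* and turned into octopamine, the worm's counterpart of noradrenaline, by the hydroxylase *tbh-1*. The vesicular transporter *cat-1* loads monoamines into vesicles, and *dat-1* and *mod-5* take dopamine and serotonin back into the cell. While most of the 9 genes are known from neurons, *tdc-1* and *tbh-1* are also expressed in the sheath cells of the gonad. Whole worms were sequenced, so fewer cells of a type and less RNA per cell cannot be told apart.

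The libraries held between 14929196 and 21691687 counts, and the 2 libraries of each group correlated at 0.981 to 0.991 on the log scale. Marker genes of neurons, glia, muscle, intestine, hypodermis, germline, gonadal sheath and sperm were all found, and no listed marker was at 0 in every library. The second OP50 library stood apart. It had the lowest summed level of the marker lists for neurons, other transmitters, glia, muscle, intestine and hypodermis. For the monoamine genes, results that turn on this library are given with and without it. For the other gene lists, its effect is described at most for a list as a whole. Calls of single genes in those lists are given with all libraries only, and some of them were lost without the second OP50 library.

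The 2 genes of the tyramine and octopamine route were lower in every library of worms fed a *Lactococcus* strain than in both libraries of worms fed OP50 alone. The difference of *tbh-1* passed the test in both diets, and that of *tdc-1* passed in OP50 + LL12007 and narrowly missed in OP50 + LL100933. The other 7 genes passed in neither diet. Of these, the dopamine genes *cat-2* and *dat-1* were higher in every *Lactococcus* library than in both OP50 libraries. Among all tested genes, 68.4% did not overlap OP50 in OP50 + LL12007, in either direction, and 59.1% in OP50 + LL100933. The share that did not overlap in both diets is not given. Per length of transcript the order of the genes was nearly the same in every group, with *tdc-1* first and *tbh-1* next in each.

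*tbh-1* (WBGene00006541, chromosome X, 15500259 to 15504895 on the minus strand in ce11, also called WBcel235) carries out the last step to octopamine. It had 1149 and 1149 normalized counts in the OP50 + LL12007 libraries, 1148 and 1222 in the OP50 + LL100933 libraries, and 1758 and 1941 in the OP50 libraries. Normalized here means scaled to the average TMM-adjusted size of the 6 libraries. All 4 *Lactococcus* libraries therefore lay below both OP50 libraries, with a gap wider than the spread within any group. The log2 fold change against OP50 was -0.69 ± 0.11 (SE) for OP50 + LL12007, with a 95% interval of -0.93 to -0.45 (edgeR adjusted p = 0.0193). For OP50 + LL100933 it was -0.64 ± 0.11, with an interval of -0.88 to -0.40 (edgeR adjusted p = 0.0229). These values correspond to 0.621 and 0.641 of the OP50 level. Both comparisons use the same 2 OP50 libraries.

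*tdc-1* (WBGene00006562, chromosome II, 8270567 to 8273611 on the plus strand) precedes it in the route, and its product is needed for both tyramine and octopamine. In the OP50 + LL12007 libraries it had 3341 and 3144 normalized counts, in the OP50 + LL100933 libraries 3527 and 3343, and in the OP50 libraries 4442 and 4860. Again no *Lactococcus* library reached either OP50 library. The log2 fold change was -0.52 ± 0.11 in OP50 + LL12007, with an interval of -0.77 to -0.27 (edgeR adjusted p = 0.0245). In OP50 + LL100933 it was -0.44 ± 0.11, with an interval of -0.69 to -0.18, and the edgeR adjusted p of 0.0504 missed the threshold of 0.05.

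Of the 9 genes, 2 were called lower and 0 higher in OP50 + LL12007, against 7.71% called lower, 8.76% called higher and 16.5% called either way among all tested genes. In OP50 + LL100933, 1 was called lower and 0 higher, against 2.24% lower, 4.38% higher and 6.62% either way among all tested genes. With so few members these shares say little beyond the named genes. At an unadjusted p under 0.05, 5 of the 9 passed in OP50 + LL12007 and 4 in OP50 + LL100933, against 36.9% and 31.5% of all tested genes. The median log2 fold change of the 9 was 0.25 in OP50 + LL12007 and 0.27 in OP50 + LL100933, beside 0.02 in each diet over all tested genes.

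The calls of this pair rested on having both libraries of a *Lactococcus* group, as did most calls among all genes. Over all tested genes, the 1305 called higher and 1149 called lower in OP50 + LL12007 became 15 and 0 without replicate 1 of that group and 5 and 0 without replicate 2. In OP50 + LL100933 the 652 higher and 334 lower became 50 and 0 or 7 and 0 without either library of that group. Without OP50 + LL12007 replicate 1 the edgeR adjusted p in OP50 + LL12007 was 0.0824 for *tbh-1* and 0.117 for *tdc-1*, and without replicate 2 it was 0.212 and 0.263. In OP50 + LL100933 the adjusted p of *tbh-1* was 0.0643 and 0.127 without either library of that group, and 0.0612 and 0.0657 without either OP50 + LL12007 library. The log2 fold change of *tbh-1* stayed between -0.76 and -0.55 in these fits with 1 library left out, and that of *tdc-1* between -0.58 and -0.35. Without the second OP50 library *tbh-1* was still called in both diets, at -0.60 (edgeR adjusted p = 0.0251) and -0.55 (edgeR adjusted p = 0.0295). *tdc-1* was then at -0.44 in OP50 + LL12007 (edgeR adjusted p = 0.0429) and at -0.35 in OP50 + LL100933 (edgeR adjusted p = 0.0916). Without the first OP50 library *tdc-1* passed in OP50 + LL100933 as well, at -0.50 (edgeR adjusted p = 0.0176).

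**Figure D1:**
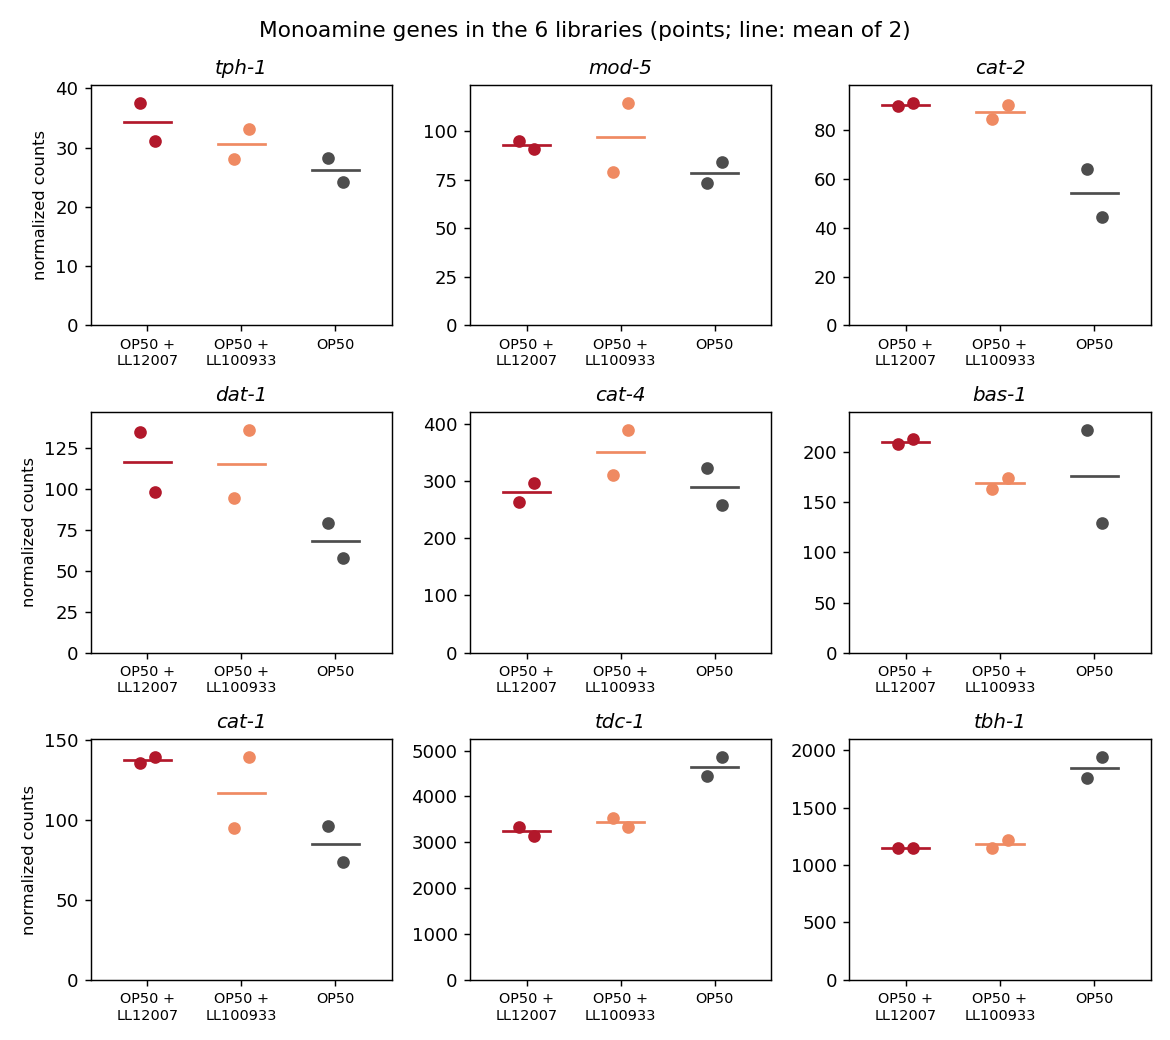
Normalized counts (vertical axes, from 0) of the 9 monoamine genes in the 2 libraries of worms fed OP50 + LL12007, OP50 + LL100933 and OP50, with a line at the mean of each group. *tdc-1* and *tbh-1* are lower in all 4 *Lactococcus* libraries than in both OP50 libraries, and *cat-2* and *dat-1* are higher in all 4.

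The balance of the 2 genes also differed between the diets, a difference that was not tested. Counts of *tbh-1* over those of *tdc-1* in the same library were 0.344 and 0.365 in OP50 + LL12007, 0.325 and 0.366 in OP50 + LL100933, and 0.396 and 0.399 in OP50. The ratio was lower in all 4 *Lactococcus* libraries than in both OP50 libraries, and it depends on no scaling between libraries. Over the 6 libraries the log2 levels of the genes had a Pearson correlation of 0.97, given as a description of 6 points that share their scaling and diets. Both genes share exon bases with a gene on the opposite strand. *tdc-1* shares 69 bases, or 2.74% of its exon length, with *gei-14*, whose log2 fold change was -0.36 in OP50 + LL12007 (edgeR adjusted p = 0.0530) and -0.32 in OP50 + LL100933 (edgeR adjusted p = 0.0906). *tbh-1* shares 21 bases with *suox-1*, at -0.08 and -0.19 and not called, and 140 bases with *H13N06.7*, which had at most 8 counts in a library. The sources used here do not state whether strand was used in counting, so reads from these shared bases cannot be assigned. *tph-1* shares 27 bases with *ZK1290.10*, at -0.58 in OP50 + LL12007 (edgeR adjusted p = 0.161), and 102 bases, or 5.48% of its exon length, with the noncoding *ZK1290.19*, which had at most 1 count in a library. It also shares 8 bases with *ZK1290.18* and 21 with *21ur-14885*, both at 0 counts in every library, while *cat-1*, *cat-2*, *bas-1*, *dat-1* and *mod-5* share none.

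Levels of other tissues' markers also differed between the diets. All 6 germline markers were called lower in OP50 + LL12007 and 2 of 6 in OP50 + LL100933, against 7.71% and 2.24% of all tested genes. These calls too became 0 in OP50 + LL12007 without either library of that group, and 0 in OP50 + LL100933 without any 1 of the 4 *Lactococcus* libraries or without the second OP50 library. The summed level of the 6 germline markers, in CPM (counts scaled to a fixed TMM-adjusted library size), was 808 and 696 in OP50 + LL12007, 977 and 795 in OP50 + LL100933, and 1171 and 1245 in OP50. Set against this sum, *tbh-1* no longer separated the groups, with ratios of 0.0812 and 0.0943 in OP50 + LL12007, 0.0671 and 0.0878 in OP50 + LL100933, and 0.0857 and 0.0891 in OP50. For *tdc-1* the ratios were 0.236 and 0.258 in OP50 + LL12007, 0.206 and 0.240 in OP50 + LL100933, and 0.217 and 0.223 in OP50. The *tdc-1* ratio was thus higher in both OP50 + LL12007 libraries than in OP50, and overlapped OP50 in OP50 + LL100933.

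Of the 6 markers of gonadal sheath and spermatheca, 5 had enough counts to be tested. The gap junction genes *inx-8* and *inx-9*, expressed in the sheath, were called lower in OP50 + LL12007, at -0.82 (edgeR adjusted p = 0.0245) and -0.65 (edgeR adjusted p = 0.0430), and none was called in OP50 + LL100933. At most 1 sheath marker was called lower in OP50 + LL12007 with any 1 library left out. The homeobox genes *lim-7* and *ceh-18* were at 0.25 and 0.93 in OP50 + LL12007 and not called. In that diet 3 of the 5 tested markers were below 0 and 2 above, with a lowest value of -0.84 and a median of -0.65. The median was -0.21 in OP50 + LL100933, again with 3 below 0. The summed level of the 6 genes was 114 and 112 CPM in OP50 + LL12007, 120 and 114 in OP50 + LL100933, and 123 and 120 in OP50. Over this sum, *tbh-1* was at 0.575 and 0.589 in OP50 + LL12007, 0.545 and 0.611 in OP50 + LL100933, and 0.820 and 0.927 in OP50. *tdc-1* was likewise lower in all 4 *Lactococcus* libraries, at 1.61 to 1.68 times the sheath sum, against 2.07 and 2.32 in OP50. The part that gonad or germline RNA has in the lower level of *tdc-1* and *tbh-1* was not tested.

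**Figure D2:**
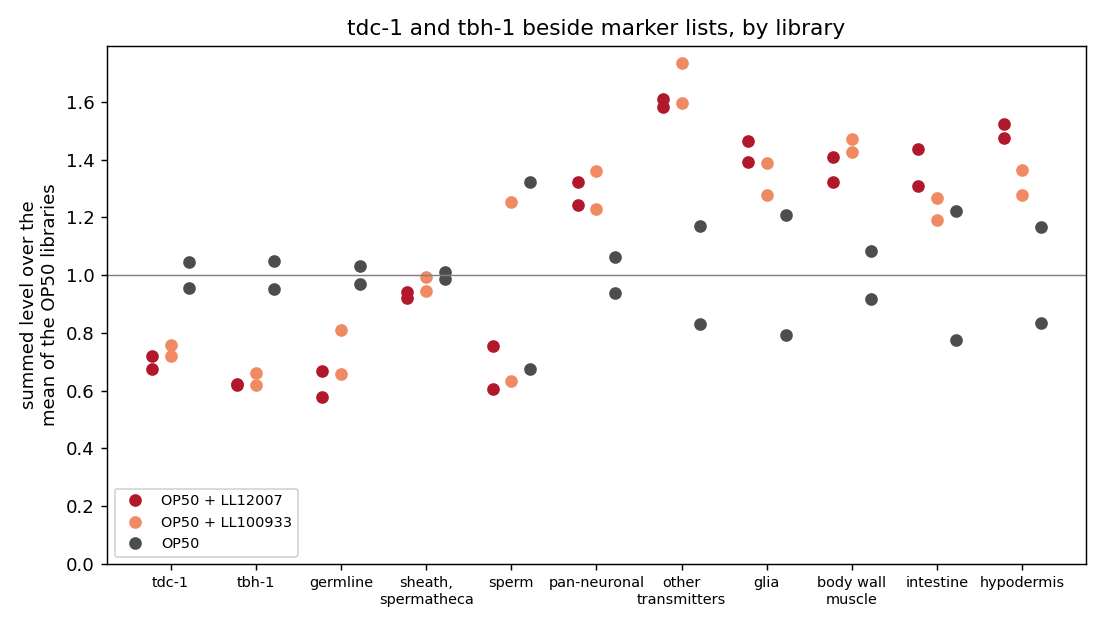
Level of *tdc-1*, *tbh-1* and 9 marker lists (summed CPM) in each library, divided by the mean of the 2 OP50 libraries (vertical axis, ratio; line at 1), for worms fed OP50 + LL12007, OP50 + LL100933 and OP50. *tdc-1*, *tbh-1* and the germline sum lie below 1 in all 4 *Lactococcus* libraries. The gonadal sheath and spermatheca sum also does, at 0.921 to 0.993, beside 1.01 and 0.988 in OP50. The lists for neurons, other transmitters, glia, muscle and hypodermis lie above both OP50 libraries.

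The dopamine genes were on the higher side with *Lactococcus* but were not called. *cat-2* (WBGene00000296, chromosome II, 257819 to 261063, plus strand), which makes the dopamine precursor, had 89.5 and 91.04 normalized counts in OP50 + LL12007, 84.3 and 90.0 in OP50 + LL100933, and 64.1 and 44.5 in OP50. The *Lactococcus* libraries lay close together and above both OP50 libraries, which were themselves far apart. Its log2 fold change was 0.72 ± 0.25 in OP50 + LL12007, with an interval of 0.15 to 1.30 (edgeR adjusted p = 0.0757), and 0.67 ± 0.25 in OP50 + LL100933, with an interval of 0.11 to 1.24 (edgeR adjusted p = 0.110).

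The dopamine reuptake transporter *dat-1* (WBGene00000934, chromosome III, 9242914 to 9246802, plus strand) had 134.9 and 98.0 normalized counts in OP50 + LL12007, 94.3 and 136.0 in OP50 + LL100933, and 79.1 and 57.6 in OP50. Neither *Lactococcus* group overlapped OP50, but the libraries within each group were far apart. The log2 fold change was 0.76 ± 0.28 (edgeR adjusted p = 0.0882) in OP50 + LL12007 and 0.74 ± 0.28 (edgeR adjusted p = 0.114) in OP50 + LL100933. The ratio of *cat-2* to *dat-1* overlapped between all groups.

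For both dopamine genes the second OP50 library was the lower one. Without it the log2 fold change of *cat-2* was 0.50 in OP50 + LL12007 (edgeR adjusted p = 0.233) and 0.46 in OP50 + LL100933 (edgeR adjusted p = 0.283), and that of *dat-1* was 0.57 (edgeR adjusted p = 0.245) and 0.56 (edgeR adjusted p = 0.267). Without the first OP50 library *cat-2* passed in both diets, at 1.02 in OP50 + LL12007 (edgeR adjusted p = 0.0242) and 0.97 in OP50 + LL100933 (edgeR adjusted p = 0.0421), and *dat-1* passed in OP50 + LL12007 at 1.01 (edgeR adjusted p = 0.0436).

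The serotonin genes were not called in either diet. *tph-1* (WBGene00006600, chromosome II, 7549335 to 7551977, plus strand), the key enzyme of serotonin synthesis, had only 24 to 34 raw counts in a library. Scaled, these were 37.6 and 31.1 in OP50 + LL12007, 28.1 and 33.2 in OP50 + LL100933, and 28.3 and 24.3 in OP50. OP50 + LL12007 lay above OP50, and OP50 + LL100933 overlapped it. The log2 fold changes of 0.38 ± 0.33 (edgeR adjusted p = 0.418) and 0.21 ± 0.33 (edgeR adjusted p = 0.690) had intervals that reached from -0.37 to 1.13 and from -0.53 to 0.96, so that neither a sizeable rise nor a fall could be told at this depth.

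*mod-5* (WBGene00003387, chromosome I, 3035193 to 3047794, minus strand), which returns serotonin to the neuron, had 95.1 and 91.04 normalized counts in OP50 + LL12007, 78.9 and 114.6 in OP50 + LL100933, and 73.2 and 83.9 in OP50. Only OP50 + LL12007 was clear of OP50. Its log2 fold change was 0.25 ± 0.25 in OP50 + LL12007 (edgeR adjusted p = 0.490) and 0.30 ± 0.25 in OP50 + LL100933 (edgeR adjusted p = 0.432).

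Of the genes shared by several monoamines, the vesicular transporter *cat-1* (WBGene00000295, chromosome X, 5705719 to 5710625, minus strand) was the one that differed most. It had 136.0 and 139.4 normalized counts in OP50 + LL12007, 95.2 and 139.2 in OP50 + LL100933, and 96.5 and 73.8 in OP50. The OP50 + LL12007 libraries were nearly equal and above OP50, while 1 OP50 + LL100933 library was at their level and the other at that of OP50. The log2 fold change was 0.69 ± 0.25 in OP50 + LL12007 (edgeR adjusted p = 0.0834) and 0.45 ± 0.25 in OP50 + LL100933 (edgeR adjusted p = 0.245). In OP50 + LL12007 it passed without the first OP50 library, at 0.90 (edgeR adjusted p = 0.0414), and was at 0.52 without the second (edgeR adjusted p = 0.229).

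The cofactor gene *cat-4* (WBGene00000298, chromosome V, 10564880 to 10566445, plus strand) overlapped OP50 in both diets. It had 264.2 and 297.3 normalized counts in OP50 + LL12007, 311.0 and 389.8 in OP50 + LL100933, and 322.9 and 257.7 in OP50. The log2 fold change was -0.05 ± 0.18 in OP50 + LL12007 (edgeR adjusted p = 0.849) and 0.27 ± 0.18 in OP50 + LL100933 (edgeR adjusted p = 0.322). The 95% intervals were -0.46 to 0.35 and -0.13 to 0.67. *cat-4* shares 81 bases, 9.06% of its exon length, with *vps-54* on the opposite strand, which was not called in either diet.

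The decarboxylase *bas-1* (WBGene00000239, chromosome III, 5612274 to 5614700, plus strand) had 207.8 and 213.2 normalized counts in OP50 + LL12007, 163.2 and 174.6 in OP50 + LL100933, and 222.2 and 129.4 in OP50. The OP50 libraries stood on either side of all 4 *Lactococcus* libraries. The log2 fold change was 0.25 ± 0.24 in OP50 + LL12007 (edgeR adjusted p = 0.466) and -0.07 ± 0.24 in OP50 + LL100933 (edgeR adjusted p = 0.877). It depended on which OP50 library was kept. In OP50 + LL12007 it was 0.70 without the first (edgeR adjusted p = 0.0322) and -0.07 without the second (edgeR adjusted p = 0.841), and in OP50 + LL100933 it was 0.38 (edgeR adjusted p = 0.216) and -0.37 (edgeR adjusted p = 0.243).

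Within a library, *cat-2* over *bas-1* was 0.431 and 0.427 in OP50 + LL12007, 0.517 and 0.515 in OP50 + LL100933, and 0.288 and 0.344 in OP50. This ratio of the enzymes before and after the dopamine precursor was higher in all 4 *Lactococcus* libraries. The ratios of other pairs did not all separate the diets. *tdc-1* over *bas-1* was 16.1 and 14.7 in OP50 + LL12007, 21.6 and 19.1 in OP50 + LL100933, and 19.99 and 37.6 in OP50, and overlapped OP50 in OP50 + LL100933. *cat-2* over *cat-1* and *tph-1* over *mod-5* overlapped OP50 in both diets. *tdc-1* over *cat-1* was 24.6 and 22.5 in OP50 + LL12007, 37.0 and 24.01 in OP50 + LL100933, and 46.02 and 65.9 in OP50, and did not overlap OP50 in either diet.

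**Figure D3:**
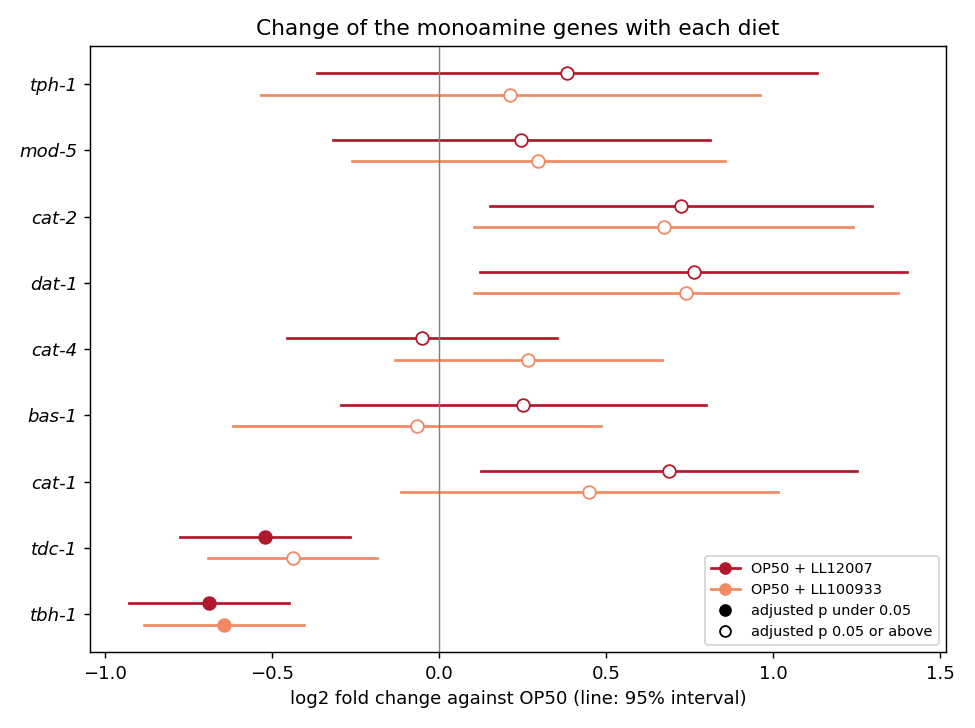
Log2 fold change of each monoamine gene against OP50 (horizontal axis, 0 marked) with its 95% interval, for OP50 + LL12007 above OP50 + LL100933, with filled points where the edgeR adjusted p was under 0.05. *tbh-1* is filled in both diets and *tdc-1* in OP50 + LL12007, and all other points are open.

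In counting libraries rather than testing them, 5 of the 9 genes were higher in both OP50 + LL12007 libraries than in both OP50 libraries and 2 were lower, where 34.6% and 33.9% of all tested genes, 68.4% together, were. For OP50 + LL100933, 2 were higher and 2 lower, where 29.2% and 29.9%, together 59.1%, of all tested genes were. The 5 were *tph-1*, *cat-1*, *cat-2*, *dat-1* and *mod-5*, of which *cat-2* and *dat-1* also stood clear in OP50 + LL100933.

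Worms fed the 2 strains did not differ in any of the 9 genes by the test. With OP50 + LL12007 set against OP50 + LL100933, 0 of 9 were called, as were 0 of all 14899 genes, a share of 0.0%. At an unadjusted p under 0.05 there were 0 of the 9 and 1530, or 10.3%, of all genes, and DESeq2 on the 6 libraries called 83 genes higher and 67 lower but none of the 9. The log2 fold changes ran from -0.32 for *cat-4* to 0.32 for *bas-1*. For *tbh-1* it was -0.04, with an interval of -0.28 to 0.20, and for *tdc-1* -0.08, with an interval of -0.34 to 0.17. The intervals of the weaker genes were wider, from -0.57 to 0.91 for *tph-1* and from -0.60 to 0.64 for *dat-1*. Library by library, *bas-1* was higher in both OP50 + LL12007 libraries and *cat-4* and *tdc-1* were lower in both, 1 and 2 of the 9 genes, where 24.6% and 21.9%, together 46.5%, of all tested genes were.

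Levels of different genes were compared per length, as CPM for each kilobase of exon. Over all 6 libraries *tdc-1* had 85.7 ± 15.9 (SD), above 91.4% of the tested genes, and *tbh-1* had 36.7 ± 9.44. *cat-4* followed with 19.6 ± 3.06 and *bas-1* with 6.28 ± 1.21. The libraries of these 4 genes did not overlap with those of the next gene in the order. *cat-1* at 3.38 ± 0.848, *dat-1* at 2.67 ± 0.828, *mod-5* at 2.48 ± 0.406 and *cat-2* at 2.47 ± 0.607 each overlapped their neighbour. *tph-1* was last with 0.933 ± 0.142, clear of the rest and above only 8.18% of the tested genes. The order of the first 5 and the last gene was the same in all 3 groups. *dat-1*, *cat-2* and *mod-5* came in this order in both *Lactococcus* groups, and *mod-5*, *dat-1* and *cat-2* in OP50, where neighbours among these 3 overlapped.

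Of all the counts of the 9 genes, *tdc-1* and *tbh-1* took 82.3% and 81.7% in OP50 + LL12007, 84.5% and 80.9% in OP50 + LL100933, and 87.5% and 91.02% in OP50. Their share was lower in every *Lactococcus* library. The summed level of the 9 genes was accordingly lower too, at 312 and 300.1 CPM in OP50 + LL12007 and 316 and 322 in OP50 + LL100933, against 405 and 427 in OP50.

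**Figure D4:**
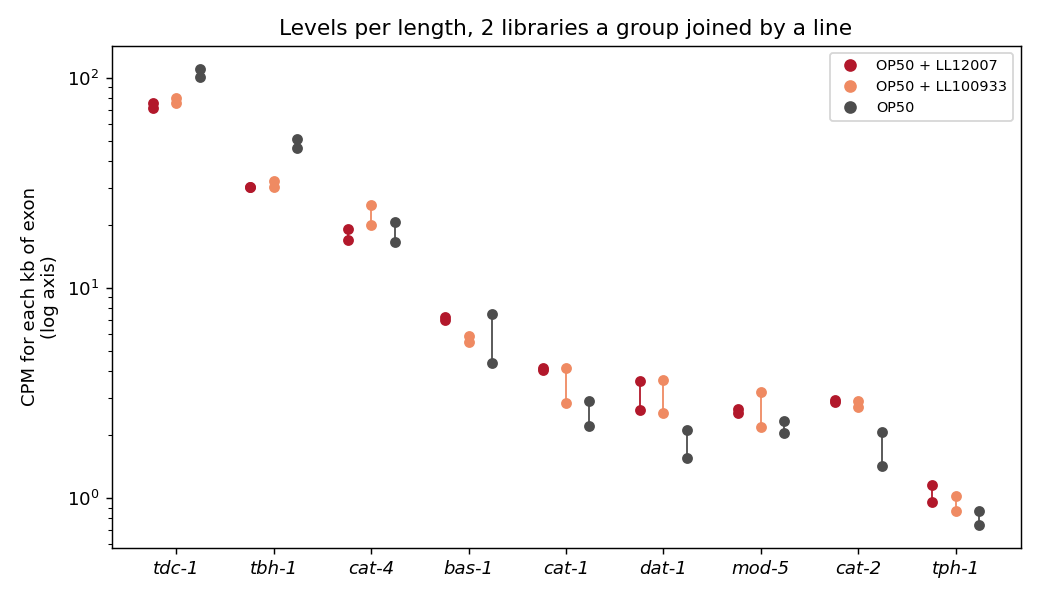
CPM for each kilobase of exon (log axis) of the 9 genes, ordered by their mean over the 6 libraries, with the 2 libraries of OP50 + LL12007, OP50 + LL100933 and OP50 joined by a line. The levels run from 85.7 for *tdc-1* to 0.933 for *tph-1*, and the 4 genes between *bas-1* and *tph-1* overlap.

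The receptors that read the monoamines were mostly on the higher side with *Lactococcus*. Of 20 receptors, all tested, 11 were called higher and 0 lower in OP50 + LL12007, against 8.76% and 7.71% of all tested genes. The log2 fold change was above 0 for 19 receptors, with a median of 0.77. In OP50 + LL100933, 0 were called by edgeR, although 11 passed at an unadjusted p under 0.05, against 31.5% of all tested genes. There 19 receptors were again above 0, and the median was 0.61. DESeq2 on the 6 libraries called 4 higher in OP50 + LL12007 and 1 in OP50 + LL100933. Between the strains 0 receptors were called and 2 passed at an unadjusted p under 0.05, against 10.3% of all tested genes. The receptor calls rested on single libraries. In OP50 + LL12007 most were lost without the second OP50 library and all without either OP50 + LL12007 library. Some were lost without either OP50 + LL100933 library. The median log2 fold change of the receptors in OP50 + LL12007 was 0.64 without the second OP50 library. It was 0.82 without OP50 + LL12007 replicate 1 and 0.79 without replicate 2. Without the first OP50 library, 12 were called in OP50 + LL12007, 9 of them among the 11, and 5 in OP50 + LL100933. The lists of genes here and below were written with earlier results of these data known.

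Of the 6 serotonin receptors, 3 were higher in OP50 + LL12007. The serotonin-gated channel *lgc-50* averaged 193 ± 12.1 normalized counts in OP50 + LL12007, 181 ± 36.5 in OP50 + LL100933 and 108 ± 14.96 in OP50 (SD, n = 2 each), with a log2 fold change of 0.84 (edgeR adjusted p = 0.0326) in OP50 + LL12007. The G protein-coupled receptors *ser-4* and *ser-1* were at 0.70 (edgeR adjusted p = 0.0396) and 0.69 (edgeR adjusted p = 0.0494). In OP50 + LL100933 the most abundant of the list, *ser-4*, was at 0.64 (edgeR adjusted p = 0.0680).

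Of the 7 dopamine receptors, 4 were higher in OP50 + LL12007. The dopamine-gated channel *lgc-53* had the largest log2 fold change of the 20 receptors, 1.47 (edgeR adjusted p = 0.0245), with 55.8 ± 0.753 normalized counts in OP50 + LL12007, 33.3 ± 7.39 in OP50 + LL100933 and 20.1 ± 0.169 in OP50. *dop-5*, a dopamine receptor homolog, had 382 ± 71.9 in OP50 + LL12007, 364 ± 60.2 in OP50 + LL100933 and 203 ± 47.7 in OP50, at 0.90 (edgeR adjusted p = 0.0282) and, in OP50 + LL100933, 0.83 (edgeR adjusted p = 0.0505). The D2-like receptors *dop-2* and *dop-3* were at 0.76 (edgeR adjusted p = 0.0449) and 1.11 (edgeR adjusted p = 0.0454) in OP50 + LL12007.

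The 7 receptors of tyramine and octopamine included 4 that were higher in OP50 + LL12007, where *tdc-1* and *tbh-1* were lower. The tyramine-gated chloride channel *lgc-55* had 150.2 ± 9.20 normalized counts in OP50 + LL12007, 114 ± 36.3 in OP50 + LL100933 and 75.4 ± 12.3 in OP50, at 0.99 (edgeR adjusted p = 0.0366) in OP50 + LL12007. The tyramine receptors *ser-2* and *tyra-2* were at 1.03 (edgeR adjusted p = 0.0425) and 0.94 (edgeR adjusted p = 0.0483), and the octopamine receptor *ser-3* was at 0.64 (edgeR adjusted p = 0.0480). In OP50 + LL100933 *ser-3*, the most abundant of the list per length, was at 0.40 (edgeR adjusted p = 0.177). The octopamine receptor *octr-1* was the 1 receptor below 0 in OP50 + LL12007, at -0.14 and not called.

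Summed levels of markers of neurons in general and of some other tissues were also higher with *Lactococcus*. Of 19 genes used by all neurons, 6 were called higher in OP50 + LL12007 and 3 in OP50 + LL100933, and 0 lower in either. Among all tested genes, 8.76% and 4.38% were called higher in these diets. The 19 genes were summed as well. Their summed level was 2044 and 2173 CPM in OP50 + LL12007, 2020 and 2239 in OP50 + LL100933, and 1745 and 1542 in OP50. Of 7 synthesis and transport genes of other transmitters, 4 were called higher in each diet. Fewer genes of this list and of the 19 were called in each diet when the second OP50 library was left out. With edgeR on the 4 libraries of each comparison alone, 1 of the 7 and 7 of the 19 were called higher in OP50 + LL12007. In OP50 + LL100933 that fit called 0 of the 7 and 0 of the 19. The glutamate transporter *eat-4* was at 0.77 in OP50 + LL12007 (edgeR adjusted p = 0.0269) and was not called in OP50 + LL100933. The acetylcholine transporter *unc-17* was at 0.83 in OP50 + LL100933 (edgeR adjusted p = 0.0344). In OP50 + LL12007 *unc-17* was at 0.52 and not called (edgeR adjusted p = 0.0624). The other called genes of this list passed in both diets. The summed levels of the glia, muscle and hypodermis markers were higher in all 4 *Lactococcus* libraries than in both OP50 libraries as well. Relative to the OP50 mean, the glia sum was at 1.39 and 1.46 in OP50 + LL12007 and 1.28 and 1.39 in OP50 + LL100933, against 1.21 and 0.791 in OP50. The body wall muscle sum was at 1.32 and 1.41 in OP50 + LL12007, 1.43 and 1.47 in OP50 + LL100933, and 1.082 and 0.918 in OP50. The hypodermis sum was at 1.52 and 1.47 in OP50 + LL12007, 1.36 and 1.28 in OP50 + LL100933, and 1.16 and 0.835 in OP50. The pan-neuronal sum lay between 1.23 and 1.36 in the *Lactococcus* libraries on the same scale. By the test, 1 of 5 glia, 1 of 5 muscle and 1 of 4 hypodermis markers were called higher in OP50 + LL12007, and 0, 1 and 0 in OP50 + LL100933. The glia and hypodermis calls in OP50 + LL12007 were lost without the second OP50 library. The part of these tissues' RNA in the receptor levels was not tested. When libraries were scaled by the summed counts of the 19 neuronal genes, the median of all genes shifted by -0.36 on the log2 scale in OP50 + LL12007 and by -0.37 in OP50 + LL100933. All genes were then split into 411 higher and 4504 lower in OP50 + LL12007, against 1305 and 1149 as reported here, and into 233 higher and 4509 lower in OP50 + LL100933, against 652 and 334. On that scale 2 receptors were called higher in OP50 + LL12007 and 0 in OP50 + LL100933, *cat-2* was at 0.38 and 0.31, *dat-1* at 0.42 and 0.37, *tdc-1* at -0.89 and -0.81, and *tbh-1* at -1.05 and -1.02.

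Beyond the receptors, 9 of 43 tested genes around the pathway were called higher and 1 lower in OP50 + LL12007, and 3 higher and 1 lower in OP50 + LL100933. Among all tested genes, 8.76% were called higher and 7.71% lower in OP50 + LL12007, and 4.38% and 2.24% in OP50 + LL100933. Over all 10 lists, the receptors included, which hold 72 genes with 63 tested, 20 were called higher and 1 lower in OP50 + LL12007, and 3 higher and 1 lower in OP50 + LL100933. Between the strains edgeR called 0 of the 63, and 5 passed at an unadjusted p under 0.05, against 10.3% of all tested genes. The counts in OP50 + LL12007 were 0 without either library of that group and 7 higher and 2 lower without the second OP50 library. In OP50 + LL100933 the calls were those of *agmo-1*, *snf-3*, *snf-11* and *snf-9*, described below. All were lost without any 1 of the 4 *Lactococcus* libraries. Without the second OP50 library most of them were lost and other genes were called. Without the first, most of them kept their call and more genes were called. Without the first OP50 library, 28 were higher and 4 lower in OP50 + LL12007.

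Of 8 genes for monoamine breakdown, *amx-2*, a monoamine oxidase, and *comt-3*, of the catechol O-methyltransferase family, were higher in OP50 + LL12007, at 0.67 (edgeR adjusted p = 0.0443) and 1.10 (edgeR adjusted p = 0.0399). None was called in OP50 + LL100933, where the most abundant, *amx-1*, was at -0.13 (edgeR adjusted p = 0.542). Among 6 genes that make, recycle or use the cofactor tetrahydrobiopterin, 1 passed in both diets. This was the alkylglycerol monooxygenase *agmo-1*, with 343 ± 1.09 normalized counts in OP50 + LL12007, 327 ± 15.1 in OP50 + LL100933 and 214 ± 4.18 in OP50, at 0.68 (edgeR adjusted p = 0.0242) and 0.61 (edgeR adjusted p = 0.0435). Of 6 genes of tyrosine breakdown, the aminotransferase *tatn-1*, which draws on the same amino acid as *cat-2* and *tdc-1*, was higher in OP50 + LL12007 at 1.12 (edgeR adjusted p = 0.0256). It had 4031 ± 162 normalized counts in OP50 + LL12007, 2320 ± 558 in OP50 + LL100933 and 1850 ± 537 in OP50. In OP50 + LL100933 none of the list passed, and its most abundant gene *hpd-1* was at 0.13 (edgeR adjusted p = 0.744).

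The 12 SLC6 homologs of *dat-1* and *mod-5* include 7 with enough counts, and 3 of these were called in both diets. The betaine transporter *snf-3* was higher at 0.63 (edgeR adjusted p = 0.0289) in OP50 + LL12007 and 0.70 (edgeR adjusted p = 0.0410) in OP50 + LL100933, and the GABA transporter *snf-11* at 0.68 (edgeR adjusted p = 0.0253) and 0.67 (edgeR adjusted p = 0.0429). *snf-9* was lower, with 53.6 ± 0.778 normalized counts in OP50 + LL12007, 62.3 ± 9.34 in OP50 + LL100933 and 125 ± 2.26 in OP50, at -1.22 (edgeR adjusted p = 0.0202) and -0.998 (edgeR adjusted p = 0.0423). Of 12 transcription factors that shape monoamine neurons, *sem-4*, *unc-86* and *vab-3* were higher in OP50 + LL12007, at 0.82 (edgeR adjusted p = 0.0193), 0.63 (edgeR adjusted p = 0.0438) and 0.40 (edgeR adjusted p = 0.0453), and none passed in OP50 + LL100933. *ceh-20*, the most abundant of these, was then at 0.10 (edgeR adjusted p = 0.621). In the kynurenine pathway, which breaks down tryptophan, 0 of 5 tested genes passed in either diet, and its most abundant gene *tdo-2* was at 0.33 (edgeR adjusted p = 0.111) and 0.27 (edgeR adjusted p = 0.196). The decarboxylase homologs *basl-1*, *hdl-1* and *hdl-2* had at most 13 counts in a library and were not tested.

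**Figure D5:**
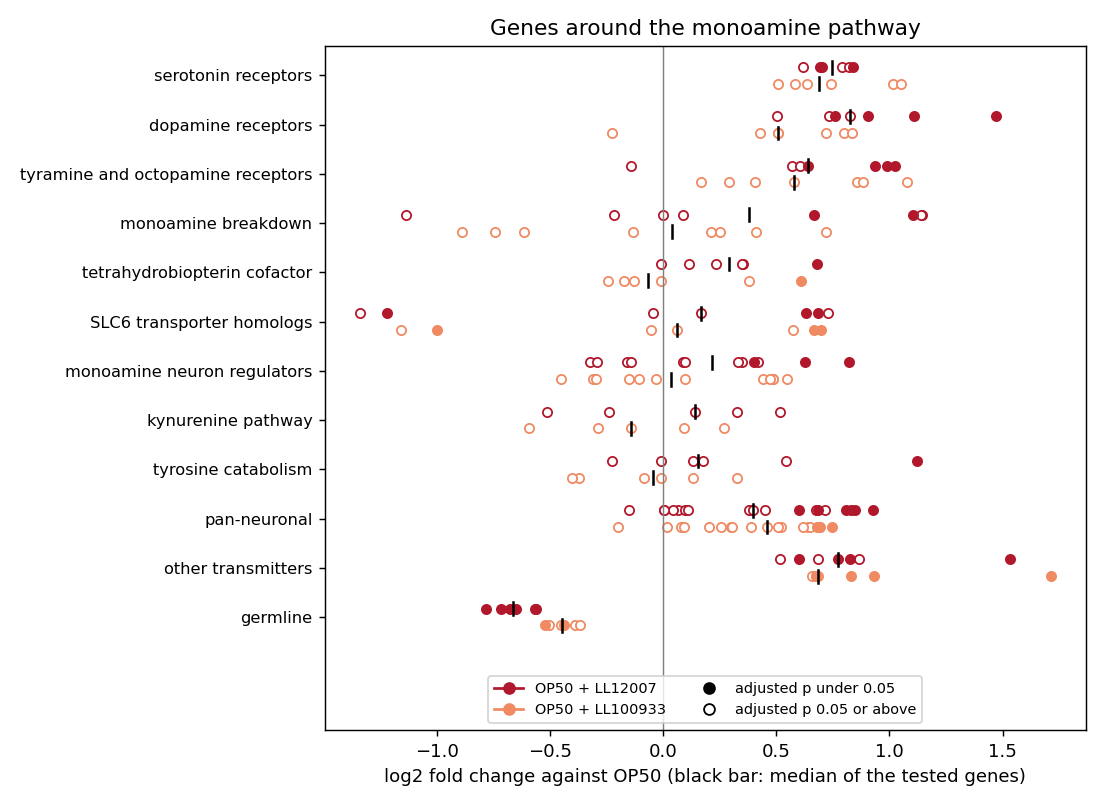
Log2 fold change against OP50 (horizontal axis, 0 marked) of the tested genes of 9 lists around the monoamine pathway and 3 marker lists, for OP50 + LL12007 above OP50 + LL100933, with filled points where the edgeR adjusted p was under 0.05 and a black bar at each list's median. The 3 receptor lists lie mostly to the right with medians of 0.75, 0.83 and 0.64 in OP50 + LL12007 and 0.69, 0.51 and 0.58 in OP50 + LL100933, and the germline list lies to the left.

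Many other genes followed the pattern of *tdc-1* and *tbh-1* over the 6 libraries. By Pearson correlation of log2 CPM, 829 tested genes had a value above 0.95 with *tdc-1* and 468 with *tbh-1*. Closest to *tdc-1* were *msh-6*, a mismatch repair gene, at 0.9998, and *ZK105.1* and *skr-8*, a homolog of the ubiquitin ligase subunit Skp1, each at 0.998. The closest to *tbh-1* were *F02H6.3* at 0.999, *T13F2.6* at 0.998 and *sac-1*, a phosphoinositide phosphatase, at 0.997. These are descriptions over 6 points in 3 groups that share the same scaling.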

How the data were processed

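The authors trimmed the reads, mapped them with STAR to ce11 (WBcel235) and used featureCounts to count reads for each gene. The submitters' processing notes give Trim Galore 0.6.5, Trimmomatic 0.39, cutadapt 2.7, STAR 2.7.2b and featureCounts 1.6.4, and the study's methods give other versions of the same tools. The values used are the deposited whole-number counts, with no normalization, together with the exon length in the same tables. The strand option of the counting and the handling of multiply mapped reads are not given in the sources used.

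In R 4.3.3, edgeR 4.0.16 was used with its filterByExpr filter, and the genes left were tested with TMM factors and glmQLFit (robust) on all 6 libraries, with a term for the group and 3 residual degrees of freedom. P-values were adjusted by the method of Benjamini and Hochberg over 14899 genes within each comparison, with a threshold of 0.05. Standard errors are the absolute log2 fold change over the root of its F statistic, and intervals from the t distribution with the moderated degrees of freedom. The fit was tested on simulated data. Correlations used log2 CPM with a prior count of 2. Exon overlaps were computed from the coordinates in the count tables.

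The 9 genes, the gene lists and the tests were chosen with earlier results of these data known. Named are all 9 genes, up to 4 called genes a list, otherwise its most abundant gene, and the 3 genes most correlated with each called member. Of the marker lists, 2 genes each of the gonadal sheath and of other transmitters, and 2 sheath genes that were not called, were named after their values were seen, as was *octr-1*. Genes that share exon bases with the 9 were named for that.

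As alternatives, DESeq2 1.42.0 was run on the 6 libraries together and for the 4 of each comparison alone, edgeR for those 4, RLE and upper-quartile factors, library totals, factors from the pan-neuronal list, no filter, at least 10 counts in every library of a group, no robust estimation, a replicate block, and each library left out. With a lone library in a group, its spread was assumed to be that of the other groups. No gene sequences were printed.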

Additional observations from a re-analysis of the deposited data

How the results depend on the processing

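No alternative turned the direction of a called gene among the 9. Of 459 fold changes of the 9 genes recomputed in the 3 comparisons, 423 kept their direction and their side of the threshold, 13 passed where they had not, 9 no longer passed and 14 changed sign without being called. *tbh-1* and *tdc-1* were called lower in OP50 + LL12007 under all 11 alternatives that kept every library. In OP50 + LL100933, *tbh-1* was called under 10 of the 11 and missed with edgeR on the pair of groups alone (adjusted p = 0.0755), which left 0 of the 9 genes lower. There, 2 genes were lower, with *tdc-1* added, with DESeq2 on all 6 libraries, with factors from the pan-neuronal list and with no filter. With no filter 3 genes (*cat-1*, *cat-2* and *dat-1*) were called higher in OP50 + LL12007 and 1 (*dat-1*) in OP50 + LL100933.

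With 1 library left out, the 9 genes gave 0 to 2 called lower and 0 to 4 higher in OP50 + LL12007, 0 to 2 lower and 0 to 1 higher in OP50 + LL100933, and 0 between the strains. The genes of the 10 lists gave 0 to 28 higher and 0 to 4 lower in OP50 + LL12007, 0 to 12 higher and 0 to 2 lower in OP50 + LL100933, and 0 to 2 higher between the strains.

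The counts over the 10 lists moved more. In OP50 + LL12007 the 20 called higher became 13 with DESeq2 on all libraries and 11 with DESeq2 on the pair. They became 5 with pan-neuronal factors and 26 with no filter, the lowest and highest counts. The 1 called lower became 9 with pan-neuronal factors and 2 with no filter. In OP50 + LL100933 the 3 called higher became 5 with DESeq2 on all libraries or RLE factors, 6 with at least 10 counts or upper-quartile factors, 13 with no filter, and 0 with edgeR on the pair or pan-neuronal factors. The 1 called lower became 11 with pan-neuronal factors, 2 with no filter and 0 with either tool on the pair. Between the strains the 0 called higher became 1 with DESeq2 on all libraries, 2 with either tool on the pair and 4 with no filter. Pan-neuronal factors lower all values against OP50 by construction, and the cause of the other moves was not tested.

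The labels and the study's text do not state whether the replicate numbers in the titles pair the samples. Differences between replicates 1 and 2 correlated at -0.06 between OP50 + LL12007 and OP50, and at -0.002 between OP50 + LL100933 and OP50. Between the strains the correlation was 0.20. Such correlations cannot show whether libraries of the same number were prepared together. With the replicate block the lists gave 9 higher in OP50 + LL12007, and 0 higher and 0 lower in OP50 + LL100933. Under the block *tbh-1* kept its calls (adjusted p = 0.0268 in OP50 + LL12007 and 0.0326 in OP50 + LL100933), and *tdc-1* was at 0.0340 and 0.0650. With library totals in place of TMM-adjusted sizes, the mean level of each of the 9 genes over the 6 libraries moved by less than the SD over those libraries. Depth was least for *tph-1*, with 24 to 34 counts in a library, and 63 of the 72 listed genes had enough counts to be tested.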
